A study of Mus musculus with 4 samples.

Results

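The BCL2 family genes described here are Bcl2, Bcl2l1, Mcl1, Bcl2l11, Bid, Bad, Bak1, Bok, Bmf and Bcl2l15, which leaves out the family genes best known as p53 targets, Bax, Bbc3 and Pmaip1. These 10 genes were taken by name from 22594 genes, after the abundances of annotated transcripts had been summed per gene, and 9 of them were abundant enough to be tested. RNA came from mouse endometrial cancer cell lines, with 2 libraries of the line MECPK and 2 of the line MSH2KO21B. For neither line is a treatment, time point, age or strain given, and the origin of the lines and their relation to each other are not stated. Each group is a single cell line, so all differences between the lines in origin or genotype cannot be told apart, and their names are used here only as labels. All values are TPM (transcripts per 1000000 transcripts of the library), corrected for transcript length, so that levels of different genes can be compared. Whether the 2 libraries of a line were separate cultures is not stated, so the spread behind each p-value may be purely technical.

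BCL2 family proteins set whether the outer mitochondrial membrane stays intact. The pore-forming proteins BAK, BAX and BOK permeabilise it and release cytochrome c, which starts the caspase cascade. Pro-survival proteins such as BCL2, BCL-XL (from Bcl2l1) and MCL1 hold BAK, BAX and the BH3-only proteins in check. BH3-only proteins such as BIM (from Bcl2l11), BID, BAD and BMF relay damage, growth factor loss and other stress. The families meet through the BH3 motif, a short helix that fits into a groove of the pro-survival proteins.

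Epithelial markers were abundant in all 4 libraries, with a summed level of 5236 to 7553 TPM over 8 genes, but their keratins differed. Krt8 was at 1502 and 1531 TPM in MECPK and 45.9 and 43.5 TPM in MSH2KO21B, and Krt5 at 1.10 and 0.68 TPM in MECPK and 3888 and 3810 TPM in MSH2KO21B; the part of this in the results below was not tested. The 9 Mullerian and endometrial markers summed to 98.4 and 96.4 TPM in MECPK and to 16.5 and 15.5 TPM in MSH2KO21B, and Pgr, Hoxa10 and Hoxa11 were listed at 0 in every library. Of other cell types, 6 of 7 immune and 6 of 6 stromal markers stayed under 1 TPM in every library. The summed level of 4 endothelial markers was 0.07 and 0.03 TPM in MECPK and 2.78 and 1.83 TPM in MSH2KO21B, with Kdr at 0 in all, and their part in the results was not tested. The lines differed across the transcriptome, with 9088 of 11921 genes called by limma at a Benjamini-Hochberg adjusted p under 0.05, and the median gene was 0.19 higher in MSH2KO21B on the log2(TPM + 1) scale. After median-ratio scaling the median was 0.02, and after quantile normalization -0.03, and small differences are also given below relative to the median as deposited. The share of called genes that were higher was 61.1% as deposited, 50.7% after median-ratio scaling and 48.1% after quantile normalization.

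The coding stretch of the BH3 core shows what the 10 genes have in common. Each stretch below is the 42 bases around a leucine codon that is followed by any 3 codons, a codon for glycine, alanine or serine, and an aspartate codon. The leucine codon and the last 2 codons of this pattern are in capitals. Sequences are from the GENCODE M21 transcripts on GRCm38, and positions are chromosome, start and end.
Bcl2 (chr1:106712572-106712613, minus strand, exon 1 of Bcl2-201): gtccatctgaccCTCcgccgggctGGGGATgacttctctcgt
Bcl2l1 (chr2:152829694-152829735, minus strand, exon 2 of Bcl2l1-201): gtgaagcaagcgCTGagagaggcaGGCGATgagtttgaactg
Mcl1 (chr3:95659424-95659465, plus strand, exon 1 of Mcl1-201): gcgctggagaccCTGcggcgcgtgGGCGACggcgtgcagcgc
Bak1 (chr17:27022528-27022569, minus strand, exon 4 of Bak1-202): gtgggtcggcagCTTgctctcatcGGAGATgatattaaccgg
Bok (chr1:93686645-93689173, plus strand, exons 2 and 3 of Bok-201): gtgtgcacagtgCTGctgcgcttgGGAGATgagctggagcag
Bid (chr6:120897286-120897327, minus strand, exon 4 of Bid-201): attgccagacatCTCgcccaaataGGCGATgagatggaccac
Bad (chr19:6950780-6950821, plus strand, exon 3 of Bad-201): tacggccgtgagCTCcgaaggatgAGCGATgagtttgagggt
Bcl2l11 (chr2:128147138-128147179, plus strand, exon 3 of Bcl2l11-205): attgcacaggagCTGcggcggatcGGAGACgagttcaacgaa
Bmf (chr2:118545097-118545138, minus strand, exon 4 of Bmf-201): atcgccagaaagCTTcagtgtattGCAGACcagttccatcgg
Bcl2l15 (chr3:103833385-103833426, plus strand, exon 2 of Bcl2l15-201): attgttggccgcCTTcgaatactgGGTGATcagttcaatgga
The pattern was found in at least 1 transcript of all 10 genes. Because it allows alanine and serine, this is a description and no test, and its frequency in other genes was not counted. Bad-204 held a second match, at leucine 131 of its protein. The residue before the aspartate was glycine in 8 genes, serine in Bad and alanine in Bmf. All stretches lie in coding exons, and the span of Bok covers the intron between the 2 exons it joins.

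Of the 9 genes tested with limma, 8 were called, 4 higher and 4 lower in MSH2KO21B. Among all genes tested 76.2% were called, 46.6% higher and 29.7% lower, so the count of called family genes is read against a high background. The lines did not overlap for 9 of the 9, against 88.9% of all genes tested. After median-ratio scaling 4 were higher and 5 lower, and after quantile normalization 3 were higher and 5 lower. Called differences above 1 on the log2 scale were found for 5 of the 9, namely Bcl2l15, Bcl2l1 and Bid, which were lower, and Bok and Mcl1, which were higher, against 30.3% of all genes tested. Bcl2l15 entered the test, at 1 TPM in 2 libraries, only through MECPK, where it was high. It therefore had to differ and adds no support to the counts in this paragraph. In these bulk samples, fewer cells with a transcript and less transcript per cell cannot be told apart. The members' median difference was -0.31, which is the value of Bcl2, or -0.51 relative to the median of all genes. Relative to all genes it moved to -0.64 after quantile normalization, -0.18 without the low-value filter and -0.98 with a filter of 10 TPM. Differences are MSH2KO21B minus MECPK of log2(TPM + 1), and the added 1 shrinks the differences of genes at low levels.

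Among the pro-survival genes, MECPK held mostly Bcl2l1 and MSH2KO21B mostly Mcl1. Bcl2l1 (ENSMUSG00000007659.18, chr2:152780668-152831728, minus strand) stood at 195 and 194 TPM in the MECPK libraries and at 37.3 and 37.0 TPM in the MSH2KO21B libraries. Both MECPK libraries lay far above both MSH2KO21B libraries, and the libraries of a line differed by little. The mean fell 5.24-fold, from 194 ± 0.92 to 37.1 ± 0.24 TPM (SD, n = 2), a log2 difference of -2.36 (SE 0.04, limma adjusted p = 9.45e-06). This level includes the incomplete fragment Bcl2l1-208, which held 9.54% and 8.04% of it in MECPK and 0% in MSH2KO21B. The complete transcripts Bcl2l1-201 and Bcl2l1-202 each fell 4.77-fold (log2 difference -2.20). Mcl1 (ENSMUSG00000038612.16, chr3:95658788-95663176, plus strand), whose protein is turned over within a short time and has to be made continually, stood at 68.8 and 68.7 TPM in MECPK. It stood at 151 and 155 TPM in MSH2KO21B, so the groups did not overlap and the order was the reverse of that of Bcl2l1. The mean rose 2.23-fold, from 68.8 ± 0.10 to 153 ± 3.02 TPM, a log2 difference of 1.15 (SE 0.04, limma adjusted p = 5.24e-05). Tested against a difference of 1 in place of 0, the Mcl1 call was lost (limma treat adjusted p = 0.0629).

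Bcl2 itself was a minor transcript in both lines. This gene (ENSMUSG00000057329.7, chr1:106538178-106714274, minus strand) encodes the founding pro-survival protein and stood at 6.69 and 8.01 TPM in MECPK and at 6.33 and 5.12 TPM in MSH2KO21B. The MECPK libraries were the higher ones, but the nearest libraries of the lines were closer to each other than the libraries within a line. The log2 difference of -0.31 was not called as deposited (95% interval -0.68 to 0.05, limma adjusted p = 0.0941). It was called after median-ratio scaling (-0.48, adjusted p = 0.0274) and after quantile normalization (-0.66, adjusted p = 0.00919). No other setting tried gave a call for Bcl2.

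Pro-survival transcripts were summed over Bcl2, Bcl2l1 and Mcl1, fragments included. The sum was 271 and 271 TPM in MECPK and 195 and 198 TPM in MSH2KO21B. Bcl2l1 made up 72.1% and 71.6% of that sum in MECPK and 19.1% and 18.7% in MSH2KO21B. Mcl1 took the opposite course, with 25.4% and 25.4% in MECPK and 77.6% and 78.7% in MSH2KO21B. Within a library the ratio of Bcl2l1 to Mcl1 was 2.84 and 2.82 in MECPK and 0.25 and 0.24 in MSH2KO21B. Such a ratio does not depend on how a library is scaled, and the lines stood on opposite sides of 1. No test of the ratios was run.

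**Figure D1:**
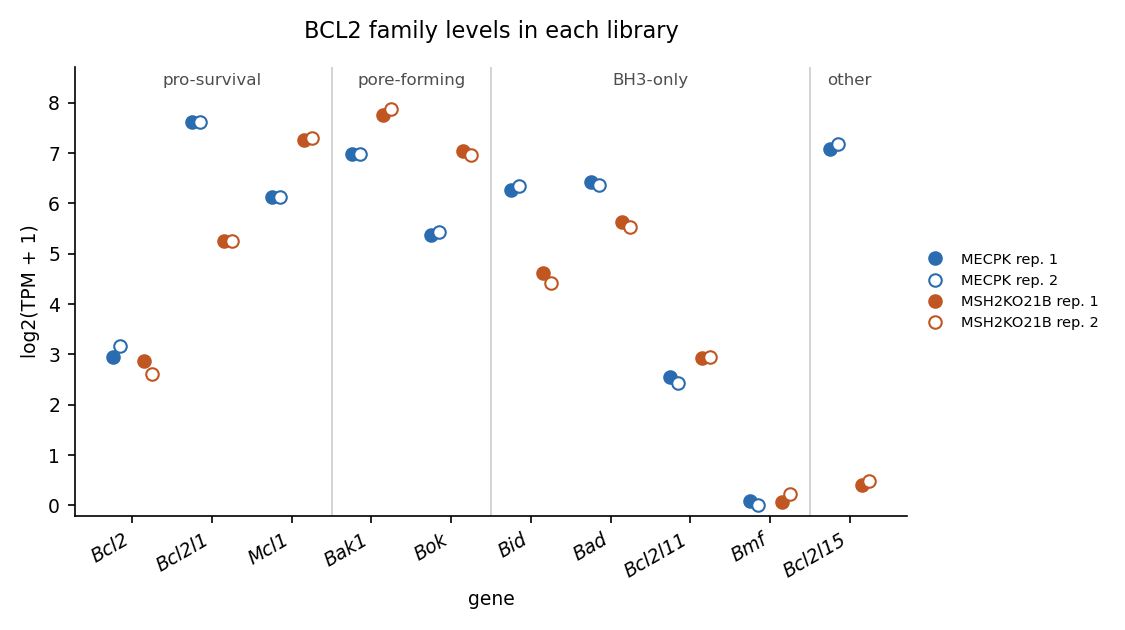
Level of each BCL2 family gene as log2(TPM + 1) in each of the 4 libraries, grouped by role, with blue for MECPK, orange for MSH2KO21B, filled for replicate 1 and open for replicate 2. Bcl2l1, Bid, Bad and Bcl2l15 sit lower in MSH2KO21B and Mcl1, Bak1 and Bok higher, while the Bcl2 libraries lie close together and Bmf is near 0 throughout.

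The pore-forming genes Bak1 and Bok were both higher in MSH2KO21B. Bak1 (ENSMUSG00000057789.14, chr17:27019810-27029009, minus strand), which encodes the resident mitochondrial pore former BAK, stood at 125 and 125 TPM in MECPK and at 216 and 234 TPM in MSH2KO21B. The groups did not overlap, and the MSH2KO21B libraries were the more spread. Its mean rose 1.81-fold, from 125 ± 0.16 to 225 ± 13.0 TPM (log2 difference 0.85, SE 0.06, limma adjusted p = 2.42e-04). Bok (ENSMUSG00000026278.14, chr1:93685660-93695764, plus strand), the third pore-forming relative, stood at 40.3 and 41.9 TPM in MECPK and at 131 and 123 TPM in MSH2KO21B. Both MSH2KO21B libraries were far above both MECPK libraries. The mean rose 3.10-fold, from 41.1 ± 1.12 to 127 ± 5.68 TPM (log2 difference 1.61, SE 0.06, limma adjusted p = 4.01e-05).

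Bax, the p53-responsive pore former that is left out of the 10 genes, fell from 198 and 171 TPM to 90.0 and 86.6 TPM (log2 difference -1.05, limma adjusted p = 3.88e-04). The ratio of Bak1 to Bax was therefore 0.63 and 0.73 in MECPK and 2.40 and 2.71 in MSH2KO21B. Bax was the most abundant of the 3 pore-forming transcripts in MECPK, with 54.5% and 50.7% of their sum, and the least abundant in MSH2KO21B, with 20.6% and 19.5%. Bok moved from 11.1% and 12.4% to 30.03% and 27.8% of that sum. Bak1 and Bok together were at 165 and 167 TPM in MECPK and at 347 and 358 TPM in MSH2KO21B, and with Bax the sum was 363 and 338 TPM against 437 and 444 TPM.

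The BH3-only genes did not move as a block. Bid (ENSMUSG00000004446.12, chr6:120891930-120916853, minus strand), whose protein links death receptors to mitochondria once caspase-8 has cut it, stood at 76.0 and 79.8 TPM in MECPK and at 23.4 and 20.4 TPM in MSH2KO21B. The MECPK libraries were the high ones, with no overlap. The mean fell 3.56-fold, from 77.9 ± 2.71 to 21.9 ± 2.10 TPM (log2 difference -1.79, SE 0.08, limma adjusted p = 8.32e-05). This level includes the incomplete fragment Bid-203 and Bid-204, which is annotated as a target of RNA decay (nonsense-mediated decay). The complete protein-coding Bid-201 held 33.3% and 30.2% of it in MECPK and 35.5% and 37.1% in MSH2KO21B (log2 difference of Bid-201 -1.53). Bid-204 was listed with the same values as Bid-201 in every library, so these shares do not separate the 2 transcripts. Bad (ENSMUSG00000024959.14, chr19:6941861-6951899, plus strand), whose protein is silenced by phosphorylation when growth factors are present, stood at 85.1 and 81.8 TPM in MECPK and at 48.2 and 45.4 TPM in MSH2KO21B. The order of the lines was the same as for Bid, again with no overlap. The mean fell 1.78-fold, from 83.4 ± 2.34 to 46.8 ± 1.97 TPM (log2 difference -0.82, SE 0.06, limma adjusted p = 2.63e-04).

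Bcl2l11 (ENSMUSG00000027381.16, chr2:128126038-128162547, plus strand) encodes BIM, which binds all the main pro-survival proteins. Its level was low, at 4.89 and 4.41 TPM in MECPK and 6.60 and 6.72 TPM in MSH2KO21B. The MSH2KO21B libraries were slightly above the others. The log2 difference of 0.44, or 0.25 relative to the median of all genes, was called (SE 0.08, limma adjusted p = 0.00753), but it was 0.07 after quantile normalization, where the call was lost (adjusted p = 0.525). Without MSH2KO21B replicate 1 or MSH2KO21B replicate 2 the difference was of like size, 0.45 and 0.43, but not called (adjusted p = 0.0580 and 0.0640). Bmf (ENSMUSG00000040093.15, chr2:118528757-118549687, minus strand), whose protein is held at the cytoskeleton until cells lose attachment, was at 0.06 and 0 TPM in MECPK and at 0.04 and 0.17 TPM in MSH2KO21B. The lines overlapped, and Bmf was too low to be tested.

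The BH3-only level was summed over all listed transcripts of Bid, Bad, Bcl2l11 and Bmf, fragments included. The sum was 166 and 166 TPM in MECPK and 78.2 and 72.7 TPM in MSH2KO21B. Bad held 51.3% and 49.3% of that sum in MECPK and 61.6% and 62.5% in MSH2KO21B. The share of Bcl2l11 was 2.94% and 2.66% in MECPK and 8.44% and 9.24% in MSH2KO21B. With the BH3-only genes outside the 10, Bbc3, Pmaip1, Bik and Hrk, the sums were 290 and 294 TPM against 105 and 101 TPM.

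**Figure D2:**
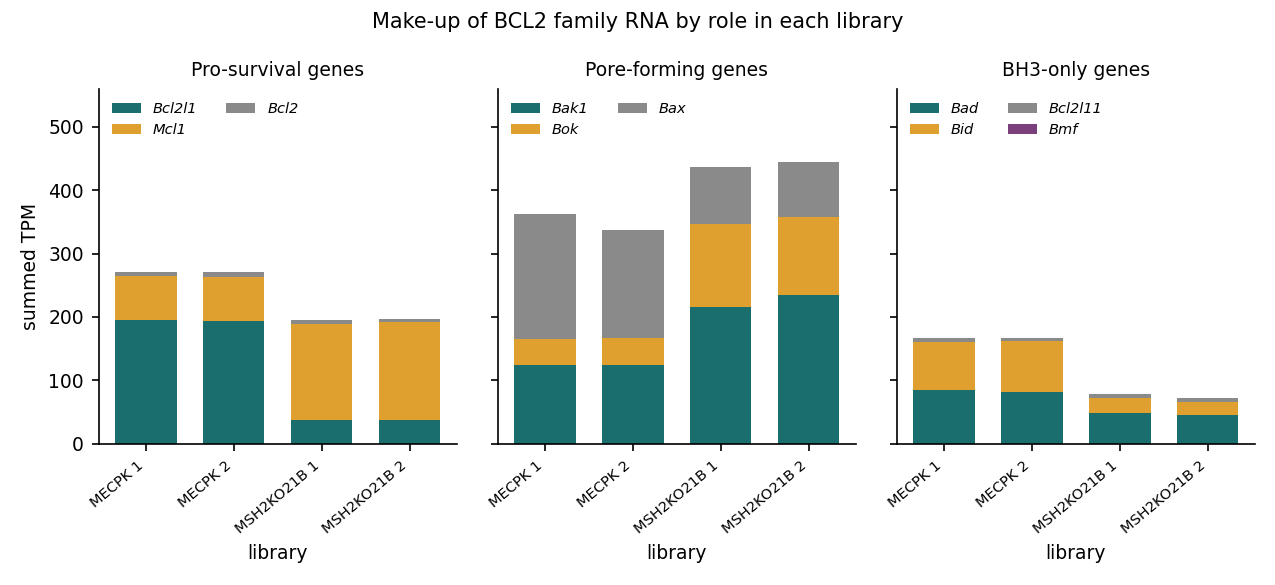
Stacked bars of the TPM of pro-survival, pore-forming and BH3-only genes in each library, with the axis starting at 0. Bcl2l1 makes up most of the pro-survival bar in MECPK and Mcl1 in MSH2KO21B, and the BH3-only bar falls from 166 TPM in both MECPK libraries to 78.2 and 72.7 TPM.

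Bcl2l15 had the largest difference among the 10 genes. Bcl2l15 (ENSMUSG00000044165.12, chr3:103832601-103854618, plus strand), a less studied relative also called Bfk, stood at 134 and 143 TPM in MECPK and at 0.32 and 0.41 TPM in MSH2KO21B. It was the second most abundant of the 10 genes in MECPK, above 90.9% of the genes tested, and the second least abundant in MSH2KO21B. The mean went from 139 ± 6.32 to 0.37 ± 0.06 TPM (log2 difference -6.67, SE 0.08, limma adjusted p = 5.07e-06), and 11921 tested genes held only 11 with a more negative value. Bcl2l15 passed the filter of 1 TPM in 2 libraries only through its MECPK libraries, so it had to differ and its p-value is no support. With a pseudocount of 0.1 in place of 1 the difference was -8.22, which shows how far the size rests on that constant when a line is near 0.

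Ordered by level, MECPK ran from Bcl2l1 through Bcl2l15, Bak1, Bad, Bid, Mcl1, Bok, Bcl2 and Bcl2l11 to Bmf. In MSH2KO21B the order was Bak1, Mcl1, Bok, Bad, Bcl2l1, Bid, Bcl2l11, Bcl2, Bcl2l15 and Bmf. The ranges of neighbouring genes in these orders did not overlap in either line, although 2 libraries give only a narrow view of the range. The closest neighbours by ratio were Bad and Bid in MECPK, whose nearest libraries were at 81.8 and 79.8 TPM, and Bcl2l11 and Bcl2 in MSH2KO21B, at 6.60 and 6.33 TPM. Over all 10 genes the summed level was 736 and 746 TPM in MECPK and 621 and 628 TPM in MSH2KO21B.

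The table lists single transcripts, and 36 of them belong to these 10 genes, of which 24 reached 1 TPM in 2 libraries. In a limma fit across all transcripts 59.7% of those tested were called, and of the 24 here 5 were higher, 12 lower and 7 not called. That fit called 13840 transcripts, and 8599 without MSH2KO21B replicate 1 or 8491 without MSH2KO21B replicate 2. For Bcl2l1, the transcripts Bcl2l1-201 and Bcl2l1-202 code for the same protein of 233 residues, the BCL-XL form, and start at different sites. They were listed with identical values, 88.2 and 89.0 TPM in MECPK and 18.6 and 18.5 TPM in MSH2KO21B, so the values do not separate the start sites. Bid-201 and Bid-204, and Bok-201 and Bok-205, were likewise listed with identical values in every library. The transcripts of such a pair were counted separately among the calls above, so those counts hold repeated values. Bcl2l1-208, Bcl2l15-201 and Bcl2l15-202 reached 1 TPM in 2 libraries only through MECPK, where they were high. They therefore had to differ, and their calls as lower add no support to those counts. Bcl2l1-208, an incompletely annotated fragment, was at 18.6 and 15.6 TPM in MECPK and at 0 in both MSH2KO21B libraries. No complete Bcl2l1 transcript in the table codes for fewer than 209 residues, so the short form BCL-XS was not analysed here.

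Mcl1-201, which codes for the full protein of 331 residues, carried the Mcl1 difference, at 68.8 and 64.4 TPM against 149 and 154 TPM (log2 difference 1.17, limma adjusted p = 7.93e-04). Mcl1-202 was uneven within MECPK, at nearly 0 and at 4.27 TPM, and was not called. Of Bcl2l11, the transcript for the longest protein (196 residues, BIM-EL) was at 2.24 and 3.18 TPM in MECPK and at 2.26 and 2.89 TPM in MSH2KO21B. The lines overlapped there, and none of the 3 Bcl2l11 transcripts tested was called. Bcl2l11-202, the only complete transcript here whose protein lacks the BH3 pattern shown above, ranged from 0 to 1.07 TPM in MECPK and from 0.73 to 2.14 TPM in MSH2KO21B. Bak1-202 and Bak1-203, which code for 209 and 146 residues, were both higher in MSH2KO21B (log2 differences 0.75 and 0.95), and Bak1-202 held 55.4% and 56.5% of the Bak1 level in MECPK and 52.9% and 51.8% in MSH2KO21B. Bcl2l15-201 held 95.9% and 93.2% of the Bcl2l15 level in MECPK.

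**Figure D3:**
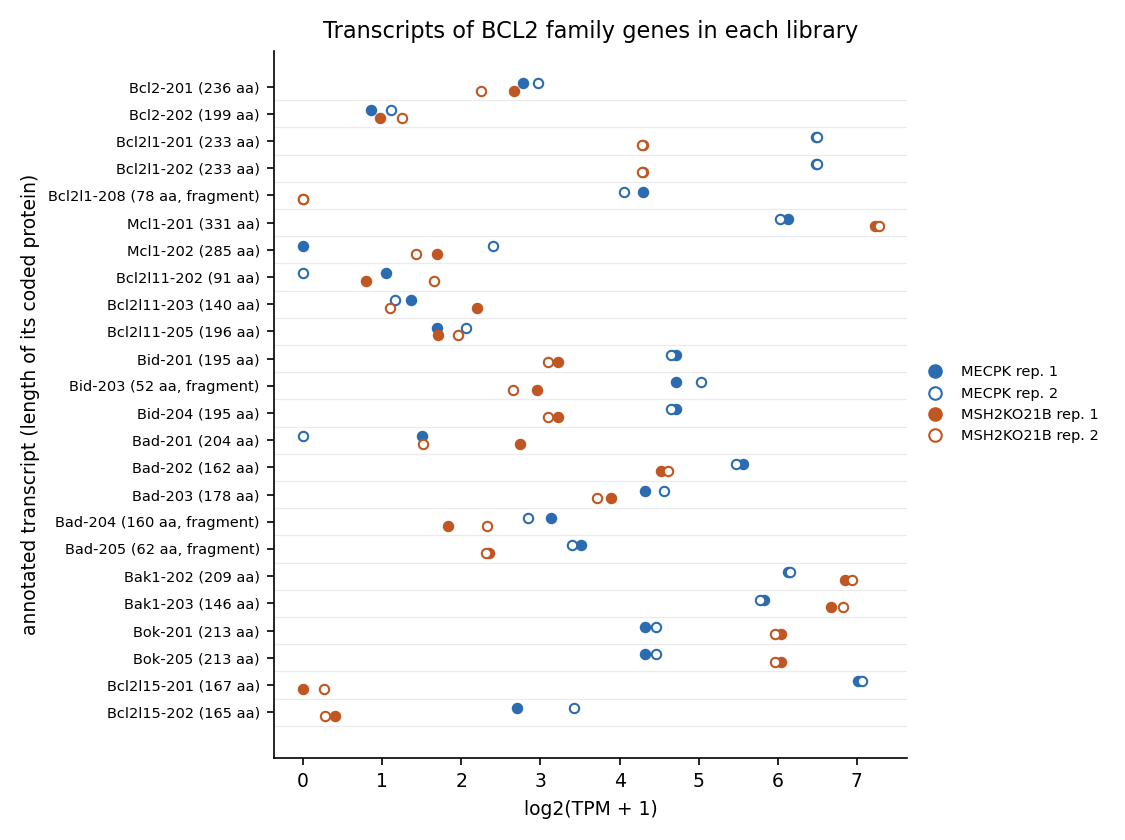
Level of each of the 24 tested transcripts as log2(TPM + 1) in each library, with the length of the coded protein in residues (aa) and colours as for the gene levels. The pairs Bcl2l1-201 and 202, Bid-201 and 204, and Bok-201 and 205 coincide in every library, while the Bcl2l11 transcripts of the lines overlap.

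Of the 10 genes, Bid, Bad, Bak1 and Bcl2l15 overlap another gene, and the strand setting of the libraries is not given in the sources used here. Bid shares 19.5% of its sequence words of 31 bases with Bcl2l13, which runs against it and stood at 35.5 and 48.8 TPM in MECPK and 75.9 and 91.8 TPM in MSH2KO21B, the opposite order to Bid. Bad shares 24.1% with Gpr137, which fell from 32.7 and 31.4 to 6.42 and 6.47 TPM, the same order as Bad. Bak1 shares 6.14% with Ggnbp1, which was under 1 TPM in all libraries, and Bcl2l15 shares 25.9% with other genes, mainly Gm43064 on the same strand, also under 1 TPM. Levels of the genes Bid and Bad are therefore less certain than those of Mcl1 and Bok, which share none, and of Bcl2l1, which shares 0.0216%. By position, Bad-202, Bad-204 and Bad-205 lie outside Gpr137, with log2 differences of -0.95, -0.91 and -1.12. Bid-201 and Bid-203 lie outside Bcl2l13, at -1.53 and -2.07, but Bid-201 was listed with the same values as Bid-204, which overlaps Bcl2l13. How much the overlaps add to the gene levels was not tested.

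The promoter of Bcl2l15 was poor in CG dinucleotides. RefSeq windows from 250 bases before to 50 after a start site were found for all 10 genes, 16 windows in all, on GRCm38.p6. The windows of Bcl2l15, of the distal Bcl2l1 start and of Mcl1 are shown because these genes changed most or in opposite ways, with CG dinucleotides in capitals. The RefSeq starts of Bcl2l15 and Mcl1 differ from the GENCODE gene starts given above.
Bcl2l15 (chr3:103832446-103832745, plus strand): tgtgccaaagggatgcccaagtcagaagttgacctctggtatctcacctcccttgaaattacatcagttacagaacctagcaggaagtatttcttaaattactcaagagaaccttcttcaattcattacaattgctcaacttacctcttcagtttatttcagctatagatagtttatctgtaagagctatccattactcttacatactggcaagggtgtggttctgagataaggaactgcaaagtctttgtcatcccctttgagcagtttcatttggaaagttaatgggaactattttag
Bcl2l1 (chr2:152831679-152831978, minus strand): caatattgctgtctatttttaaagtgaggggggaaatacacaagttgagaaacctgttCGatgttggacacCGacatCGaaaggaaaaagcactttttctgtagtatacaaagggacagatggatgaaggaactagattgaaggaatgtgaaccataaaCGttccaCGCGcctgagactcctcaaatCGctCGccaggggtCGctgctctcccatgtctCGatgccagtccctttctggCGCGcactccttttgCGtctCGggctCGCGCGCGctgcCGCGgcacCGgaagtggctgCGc
Mcl1 (chr3:95658471-95658770, plus strand): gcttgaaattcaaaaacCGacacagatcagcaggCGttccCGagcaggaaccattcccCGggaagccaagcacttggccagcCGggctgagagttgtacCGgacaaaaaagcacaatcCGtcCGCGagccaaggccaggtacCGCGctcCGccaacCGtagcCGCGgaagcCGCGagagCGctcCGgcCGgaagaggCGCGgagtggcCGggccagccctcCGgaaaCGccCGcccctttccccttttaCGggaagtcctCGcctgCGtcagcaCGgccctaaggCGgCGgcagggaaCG
The Bcl2l15 window holds no CG dinucleotide, as do 5.43% of the 32851 mouse windows, and 38.3% of its bases are G or C. The Bcl2l1 window holds 22 CG and the Mcl1 window 33, against a median of 7 over all windows. Over the other windows the count ran from 1, in another Bcl2l1 window, to 44 in Bcl2. Searched on both strands, the TATA box (TATAAA), the GC box (GGGCGG), the CCAAT box (spelled as named), the AP-1 motif (TGANTCA) and the E-box (CACGTG) were all absent from the Bcl2l15 window and from the Bcl2l1 window shown, and Mcl1 had 1 GGGCGG. In that order the motifs occur in 13.6%, 35.7%, 37.4%, 7.81% and 7.15% of all windows, and no motif contains another. No match says only that these letters are not in the window.

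Genes next to Bcl2l15 were compared to see how far the difference reaches along the chromosome. Ptpn22, which encodes a tyrosine phosphatase best known from lymphocytes and starts 5176 bases beyond the end of Bcl2l15, stood at 46.4 and 47.8 TPM in MECPK and at 0.91 and 0.89 TPM in MSH2KO21B. It fell by 4.67 on the log2 scale (SE 0.07, limma adjusted p = 6.44e-06), and like Bcl2l15 it passed the filter only through its MECPK libraries. Of the immune markers, Ptprc did not exceed 0.06 TPM in any library. Cd68 was at 3.65 and 2.82 TPM in MECPK and at 2.47 and 2.53 TPM in MSH2KO21B. Which cells the Ptpn22 RNA came from was not tested. The tested genes on either side of Bcl2l15 and Ptpn22 had smaller differences. Ap4b1 (log2 difference 0.08, limma adjusted p = 0.378) and Rsbn1 (0.17, adjusted p = 0.223) were not called, Dclre1b was called higher at 0.24, or 0.05 relative to the median of all genes, and Hipk1 lower (-0.57). Farther out on the other side, Phtf1 was higher (0.67, adjusted p = 0.00161) and Magi3 lower (-0.95, adjusted p = 7.09e-04). Around the 8 called genes, 11 of 16 flanking genes were tested, of which 4 were called in the same direction as their neighbour of the family, 6 in the opposite direction and 1 was not called, against 76.2% of all genes called. Next to Bad, Gpr137 (-2.15) and Plcb3 (-1.53) were lower, as Bad was. Next to Bak1, Itpr3 was lower (-1.87), and next to Bok, Stk25 (-0.49) and Thap4 (-0.59) were lower, against the direction of both family genes. Bcl2 lies between Phlpp1, which was lower (-1.25), and Kdsr, which was higher (0.31).

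**Figure D4:**
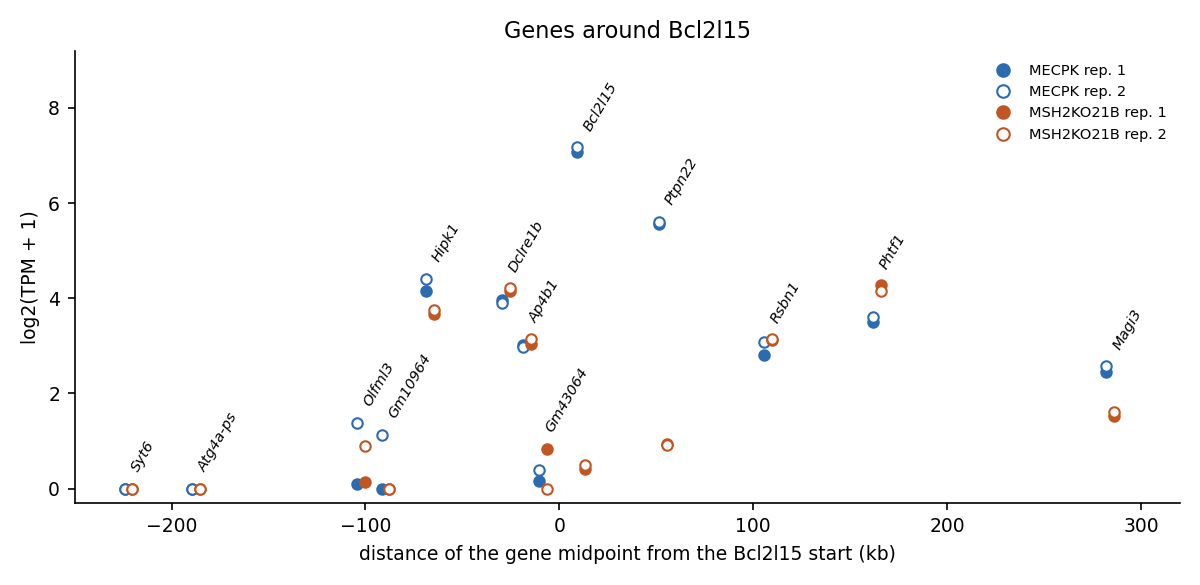
Level as log2(TPM + 1) of the protein-coding genes around Bcl2l15 in each library, placed by the distance of their midpoint from the Bcl2l15 start in kb, with blue for MECPK and orange for MSH2KO21B. Bcl2l15 and Ptpn22 are the genes whose MECPK and MSH2KO21B libraries lie farthest apart.

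The counts in the lists below are read against 76.2% of all genes called, 46.6% higher and 29.7% lower, and nothing particular to a list is drawn from them. Bik, Itpr2 and Tnfrsf1b passed the filter only through MECPK and Trp73 only through MSH2KO21B, the line where each was high, so they had to differ and the size of their difference rests on the added 1. Among the other BCL2 family genes, 5 were higher and 5 lower in MSH2KO21B of 12 tested (median -0.02, against 0.19 over all genes), and 4 higher and 6 lower after median-ratio scaling or quantile normalization. Bnip3, a mitophagy receptor, rose from 8.08 and 7.02 TPM to 72.2 and 71.0 TPM (log2 difference 3.09). The BH3-only genes Pmaip1, Bbc3 and Bik were called lower. Pmaip1, which encodes the MCL1 antagonist NOXA, went from 112 and 117 TPM to 24.0 and 26.4 TPM (-2.15). Bbc3, which encodes PUMA, went from 6.83 and 6.67 to 1.96 and 2.00 TPM (-1.38), and Bik from 4.42 and 3.85 to 0.09 and 0 TPM (-2.29). Bax and the pro-survival gene Bcl2l2 (-0.56) were the other genes called lower, and Bcl2l12 (1.10), Bcl2l13 (0.99), Bnip2 (0.89) and Bclaf1 (0.21, or 0.02 relative to the median of all genes) the other genes called higher. Without MSH2KO21B replicate 2, 3 genes of this list were called higher. The lymphoid and myeloid Bcl2a1a, Bcl2a1b and Bcl2a1d were listed at 0 in all libraries.

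Downstream of the mitochondria, the apoptosome and caspase list had 6 higher and 3 lower of 13 genes, with a median of 0.27. Dffa, which encodes the inhibitor of the caspase-activated nuclease, rose from 5.28 and 5.18 to 27.4 and 24.3 TPM (2.11), Casp6 was higher (1.03) and the mitochondrial protease gene Htra2 lower (-1.09). Apaf1, which encodes the scaffold of the apoptosome, was lower as well (-0.63). Cycs, which encodes cytochrome c, and Casp9 were not called. After median-ratio scaling 6 genes of the list were higher and 5 lower, and after quantile normalization 4 and 5. Of 4 tested inhibitor of apoptosis genes, Birc2 was higher (0.57), Birc5, which encodes survivin, lower (-0.33), and Xiap and Birc6 were not called. Without MECPK replicate 2, or without MSH2KO21B replicate 1, 2 of these 4 genes were higher.

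The death receptor list, which feeds into Bid, had 5 lower and 2 higher of 9 genes tested, with a median of -0.75. Casp8, whose product cuts BID, fell from 42.5 and 40.1 TPM to 16.6 and 16.1 TPM (log2 difference -1.28). Its inhibitor gene Cflar fell by 1.71, the receptor genes Tnfrsf10b by 1.75 and Tnfrsf1b by 2.66 on the log2 scale, and Ripk1 was lower as well (-0.75). Traf2 (0.36) and Fadd (0.31) were the higher ones, at 0.16 and 0.12 relative to the median of all genes. That number of 2 did not hold, with 1 left after median-ratio scaling or without a MECPK replicate, and 0 after quantile normalization or without an MSH2KO21B replicate. Fas, Fasl and Tnfsf10 were too low to be tested.

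Binding partners of the family were lower in 7 and higher in 4 of 17 genes (median -0.105), and in 9 and 4 after median-ratio scaling or quantile normalization. The calcium channel gene Itpr3 (log2 difference -1.87), Tpt1 (-1.42), whose product binds MCL1 and BCL-XL, Itpr2 (-1.25) and Vdac2 (-1.14), which encodes the channel that holds BAK in the outer membrane, had the largest differences. Vdac2 went from 428 and 450 TPM to 201 and 196 TPM while Bak1 rose. Dynll1 and Dynll2, whose products tether BIM and BMF, were higher (0.50 and 0.45), as were Bag1 (0.51) and Bcl2l12. Of 19 tested genes for enzymes and adaptors that act on family proteins, 6 were higher and 8 lower (median -0.01), and 5 and 11 after median-ratio scaling. Rps6ka1, a kinase gene whose product can phosphorylate BAD, rose from 9.19 and 9.22 to 43.1 and 43.5 TPM (2.12), and Pim3, a kinase gene of similar action, fell by 1.81. Mapk9 and the ubiquitin ligase gene Btrc fell by 1.56 and 1.39. Fbxw7, which marks MCL1 for degradation, was higher (1.16), and so was Usp9x (0.58), which removes such marks from MCL1. March5, another ubiquitin ligase gene linked to MCL1, was lower (-0.98), and Huwe1, whose product also marks MCL1, was not called.

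Transcription factors known to act on family genes were higher in 5 and lower in 7 of 16 genes (median -0.16), in 5 and 9 after median-ratio scaling and in 5 and 8 after quantile normalization. Trp73, the p53 relative, went from 0 and 0.05 TPM to 20.2 and 20.2 TPM (log2 difference 4.37). Jun (1.56), Rel (1.09), Cebpb (1.03) and Nfkb1 (0.63) were higher. Among those lower were Rela (-0.85), Myc (-0.55) and Foxo3 (-0.56), an activator of Bcl2l11. Foxo1 and Stat3 were not called.

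**Figure D5:**
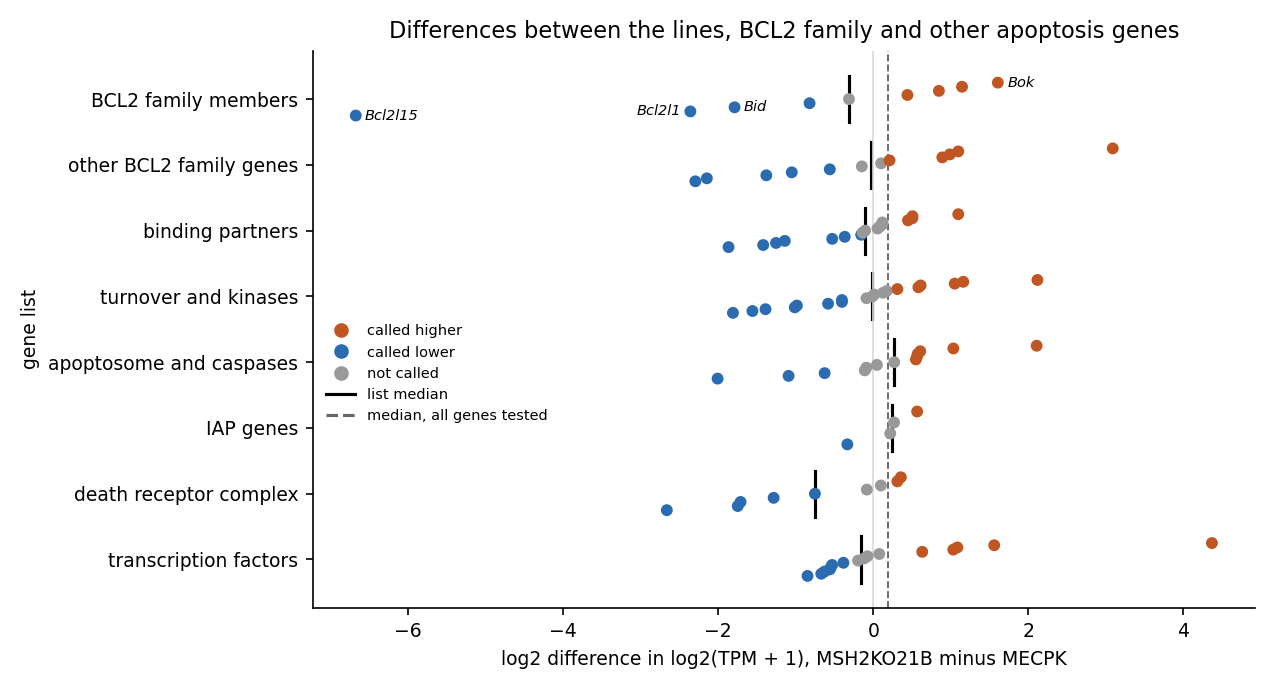
Log2 difference (MSH2KO21B minus MECPK) of each tested gene in the 10 BCL2 family genes and in 7 related lists, with orange for called higher, blue for called lower and grey for not called by limma, a black bar for the list median and a dashed line for the median of all genes tested at 0.19. Bcl2l15 lies at -6.67, beyond every other gene shown, and the death receptor list has the lowest median, a rank that did not hold with either other filter.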

How the data were processed

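RNA of 4 libraries was quantified by the authors as TPM, a deposited table of 61440 Ensembl transcripts whose columns each sum to 1000000. The authors' tools were kallisto 0.43.1, a pseudoaligner, and the build GRCm38, both named in the submitters' processing notes, while the transcript set, the options and the strand setting are not stated there. TPM keeps no depth, so the depth behind each value is unknown and neither intervals for counting error nor floors are given. Transcripts were paired with GENCODE M21 genes by identifier without version (60503 matched), and TPM was summed per gene. The 937 unmatched transcripts, 0.733% to 0.944% of a library, were left out. The check of a gene that a line name may point to, and the values of 1 gene of the related lists, are not reported here.

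Features (genes, and separately transcripts) reaching 1 TPM in 2 or more libraries entered a two-sided limma test (version 3.58.1, R 4.3.3) of log2(TPM + 1) with line as the only term and a trended prior variance, with Benjamini-Hochberg adjustment over everything tested and a threshold of 0.05. The code was tested on simulated data. Errors are SD over 2 libraries for levels and SE for differences. The 10 genes, the related lists and the motifs were chosen with earlier results of these data known. Of each list, the genes with the 4 largest called differences are named, and other list genes were chosen after their values were seen. Bnip5 had no match by symbol. Alternatives were 2 normalizations, 2 filters, a pseudocount of 0.1, no trend, a replicate block, each library left out, protein-coding transcripts only and a test against a log2 difference of 1. The ratios of Bcl2l1 to Mcl1 and Bak1 to Bax, and their alternatives, were added after seeing the data.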

Additional observations from a re-analysis of the deposited data

How the results depend on the processing

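Over all alternatives, 106 of 115 recomputed log2 differences of the family genes kept their direction and their side of the threshold, 7 lost the call, 2 gained it and 0 turned. Bcl2l15 ranged from -8.22 to -6.63, Bcl2l1 from -2.54 to -2.35, Bid from -1.97 to -1.69, Bad from -1.01 to -0.78, Bak1 from 0.66 to 0.91, Bok from 1.42 to 1.65 and Mcl1 from 0.96 to 1.17. Tested against a log2 difference of 1 (limma treat), 2443 genes were called, 1519 higher and 924 lower, and 3063 transcripts, and of the family genes 1 was higher and 3 lower, with the calls of Mcl1, Bak1, Bad and Bcl2l11 lost. Under that test the lists held, higher and lower, 1 and 3 other BCL2 family genes, 0 and 2 binding partners, 1 and 3 genes of turnover and kinases, 1 and 1 apoptosome genes, 0 and 0 inhibitors of apoptosis, and 2 and 0 transcription factors, with 0 death receptor genes higher and 4 lower. This test asks for a larger difference by construction. Median-ratio scaling gave 5 lower apoptosome genes and 1 higher death receptor gene, and quantile normalization 5 and 0. Without the low-value filter 2 inhibitor of apoptosis genes were higher and 2 lower. A filter of 10 TPM gave 3 lower other BCL2 family genes, 0 higher inhibitors of apoptosis and 8104 called transcripts, over fewer features tested. With each library left out in turn, the lone library of a line is assumed to vary like the other line. Called transcripts then ranged from 8491 to 10640, against 13840. Higher death receptor genes then ranged from 0 to 1, higher inhibitors of apoptosis from 1 to 2 and higher other BCL2 family genes from 3 to 4. Relative to all genes, the apoptosome median turned to -0.10 after quantile normalization, -0.11 with the 10 TPM filter and -0.048 without MSH2KO21B replicate 2, against 0.21 without MSH2KO21B replicate 1. The inhibitor of apoptosis median turned to -0.0041 without the filter and -0.088 with protein-coding transcripts only, and the cause was not tested. The death receptor median was -0.16 without the filter, with the family members at -0.18 and the transcription factors at -0.19. With the 10 TPM filter it was -0.57, with the family members at -0.98. The replicate numbers did not pair the libraries (correlation of deviations 0.016 over 11921 genes), and the fit with the replicate block called 9113 genes and changed no call of a family gene. TPM keeps no depth, so what depth limits could not be computed.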
